A study of Mus musculus with 24 samples.

Results

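The livers of mice fed nothing but fast food were compared with those of mice kept on the pellets on which they had been raised. The comparison used 12 of the 24 arrays of the series, 6 mice on each diet, with 3 mice of each diet in batch 1 and 3 in batch 2, and its members were chosen by the diet and batch named in the sample titles. All mice were females of the strain NMR-1, 8 weeks old when the diets began, without a genetic change or a drug named in the labels, and RNA of the whole liver was taken after 2 weeks on the diet. The other 12 mice, 6 on cooked cafeteria meals and 6 on the fruit, vegetables and yogurt given to chimpanzees, entered the fit that estimates the spread between mice. The cafeteria mice were also compared with the fast food mice directly. The fast food came from McDonald's, whereas the pellets are a cereal feed low in fat. The diets thus differed in many ingredients at once, and no single component can be told apart from the others. One sex and 1 strain were used, and nothing was measured after a shorter or longer time.

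The liver changes its metabolism with what is eaten. Fatty acids reaching the liver bind PPARα, a nuclear receptor that switches on their uptake and oxidation in mitochondria and peroxisomes. Cholesterol in the membranes of the endoplasmic reticulum (ER) holds back the transcription factor SREBP-2, so that the genes of cholesterol synthesis are transcribed less when cholesterol is plentiful. SREBP-1c and ChREBP raise fatty acid synthesis when insulin and sugar are high. The ER itself, where plasma proteins are folded, adjusts its chaperones to the load of new protein, and many liver genes follow the circadian clock, which feeding times can shift in rodents.

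Each value below is a log2 expression value of 1 array, so that a difference of 1 is a change of 2-fold. Since values come from whole tissue, fewer cells of a type and less RNA per cell cannot be told apart. The 90th percentile of the array values, a measure of signal range, was 6.31 ± 0.275 (SD, n = 6) on fast food and 6.32 ± 0.234 on pellets (exact permutation test within batches, two-sided, p = 0.94). The differences between 3' and 5' control probe sets, which grow when RNA is degraded, were also close for both diets, at 0.80 ± 0.126 against 0.754 ± 0.135 for beta-actin (n = 6 each, exact permutation p = 0.565, adjusted p = 0.94 over 3 tests). One fast food array, replicate 2 of batch 2, stood apart from the fast food and pellet arrays of its batch. Its 90th percentile was 5.86, where the others on both diets lay at 6.06 or above. Such a low value was not unique in batch 2. Cafeteria replicate 3 lay at 5.67 and chimpanzee replicates 1 and 2 at 5.80 and 5.88. The other cafeteria and chimpanzee arrays of batch 2 lay at 6.08 or above. Counts over gene lists are also given without the fast food mouse that stood apart where they differ. Marker lists of 11 cell types were read in the same arrays. Hepatocyte markers did not pass the test in either direction, with 8 genes measured and summed levels of 90.8 to 94.2 on fast food and 91.8 to 93.8 on pellets. Albumin (Alb) differed by -0.03. One marker of any list passed, the immunoglobulin heavy chain gene Ighm, described with the immune genes.

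Of 13385 genes tested, 455 (3.4%) differed between the diets at an adjusted p of 0.05 in limma, 222 higher on fast food (1.66%) and 233 lower (1.74%). The sign was shared by both batches in all 455. Because genes were called on both batches together, the choice of genes made this agreement likely in advance. In 146 of them the 6 mice of one diet all lay above the 6 of the other, against 167 such genes (1.25%) among all tested. Most changes were small. The median was 0.62 among the genes that rose and -0.66 among those that fell, 40 rose and 39 fell by more than 2-fold, and 5 rose and 2 fell by more than 4-fold. The test of a diet effect that differed between batches called 0 genes (limma, 144 at an unadjusted p of 0.05). Fitted alone, batch 1 gave 286 genes and batch 2 gave 18. Without the fast food mouse that stood apart, 303 genes rose and 174 fell. The gene lists below were not tested against the shares over all genes. Counts of 1 or 2 genes in a list thus describe those genes alone.

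**Figure D1:**
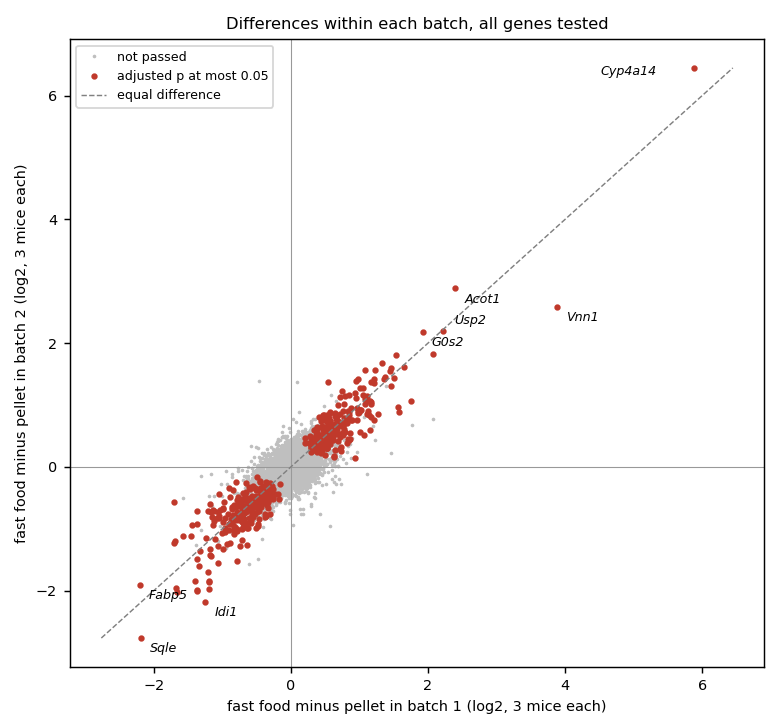
Difference between fast food and pellets (log2) in batch 1 (horizontal axis) and batch 2 (vertical axis), 3 mice per diet in each, for all 13385 genes tested. Red points are the 455 genes with an adjusted p of at most 0.05, called on both batches together. All of them lie in the lower left or upper right of the plot. Cyp4a14 stands far from the rest at 5.88 and 6.45.

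The largest difference of all was that of Cyp4a14, a cytochrome P450 of the ER that oxidizes the far end of fatty acids and is a classic PPARα target in mouse liver. On pellets its values were 2.88, 3.21 and 4.01 (lowest, median and highest of 6 mice), near the median of all values on the arrays, which was 3.15. On fast food they were 8.17, 9.74 and 10.39. The groups were far apart, and the difference was 6.17 (SE 0.41, limma, adjusted p = 1.77e-09). It was 5.88 in batch 1 and 6.45 in batch 2. Because the pellet values lay so close to that median, where the arrays have little room to show a lower level, no fold change is given.

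Cyp4a14 belongs to a list of peroxisomal and microsomal fatty acid oxidation, of whose 19 measured genes 13 rose and 0 fell on fast food, with a median difference of 0.64 against -0.0029 over all genes tested (14 rose without the mouse that stood apart). Peroxisomes shorten very long fatty acids, and Pex11a makes them divide. Pex11a ran from 6.33 through a median of 6.60 to 6.80 on pellets and from 7.58 through 8.05 to 8.24 on fast food, with no overlap and a difference of 1.40 (SE 0.12, adjusted p = 9.38e-08). Aldh3a2, which removes the fatty aldehydes that arise when fatty acids are broken down, lay at 7.63, 7.87 and 8.25 on pellets and at 8.75, 9.25 and 9.41 on fast food, a rise of 1.28 (SE 0.10, adjusted p = 6.05e-08). Both genes thus separated the mice of the diets completely.

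Eci2, an isomerase for unsaturated chains, was 7.87, 8.02 and 8.37 on pellets and 8.51, 9.22 and 9.47 on fast food, a difference of 1.09 (SE 0.10, adjusted p = 3.2e-07). The peroxisomal thiolase Acaa1b, which performs the last step of each cycle, rose by 0.90 (SE 0.10, adjusted p = 5.27e-06) from 10.82, 10.95 and 11.20 to 11.48, 11.89 and 12.14. Again no fast food mouse lay within the pellet range. Further members chosen after their values were seen were Ehhadh, the bifunctional enzyme of the cycle, which rose by 0.99, the thioesterases Acot4 and Acot3, which free fatty acids from coenzyme A and rose by 1.14 and 1.17, and Decr2, which handles double bonds and rose by 0.76. In these 4 the groups overlapped, because the lowest fast food value reached into the pellet range. The receptor gene Ppara itself differed by 0.35 and did not pass (adjusted p = 0.145).

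**Figure D2:**
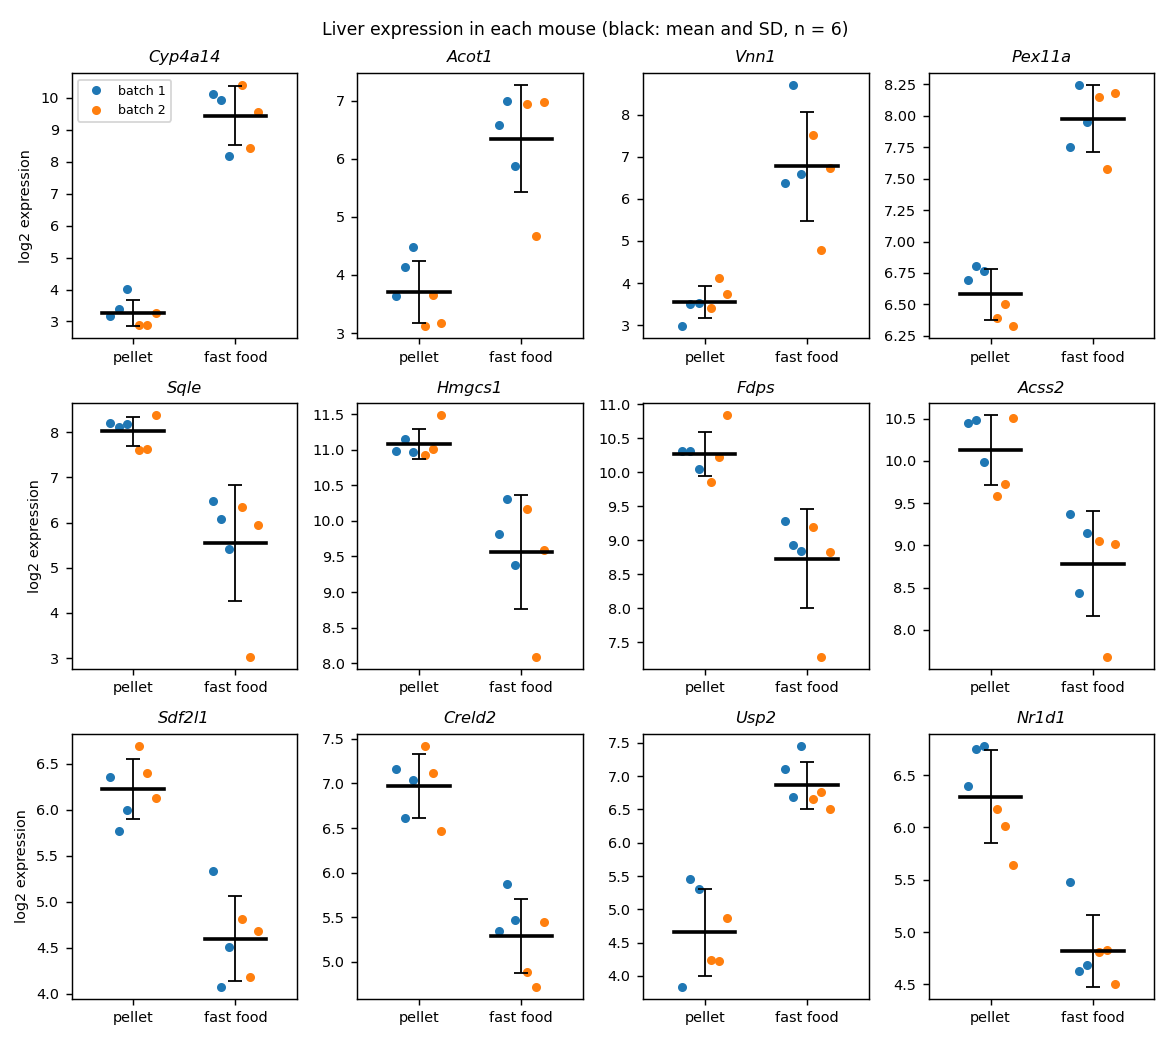
Log2 expression of 12 genes in each of the 12 mice, pellets at the left and fast food at the right of each panel, with batches 1 and 2 in different colours and black lines for the mean ± SD (n = 6). The diets do not overlap in any of the 12 panels, and in Sqle, Hmgcs1, Fdps and Acss2 1 fast food mouse of batch 2 lies far below the other 5.

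In mitochondria the same direction held for 11 of 20 measured genes of fatty acid import and oxidation (0 lower, median 0.48). The largest of these rises was that of Acot1, a cytosolic thioesterase placed in this list that cuts long-chain acyl-CoA. It ran from 3.12 through 3.65 to 4.48 on pellets and from 4.68 through 6.76 to 7.0 on fast food, a difference of 2.64 (SE 0.30, adjusted p = 6.68e-06). The lowest fast food value was that of the mouse that stood apart, and the difference without it was 2.92. Acot2, its mitochondrial relative, rose by 1.00 (SE 0.16, adjusted p = 0.000368), from 5.15, 5.52 and 5.77 to 6.09, 6.54 and 6.83. These 2 genes lie in a family of closely related sequences, so that probes may read relatives as well.

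Enzymes of the cycle itself rose as well. Acadm, the medium-chain dehydrogenase, lay at 9.74, 10.03 and 10.13 on pellets and at 10.09, 10.59 and 10.73 on fast food, a rise of 0.58 (SE 0.09, adjusted p = 0.000245). Decr1 and Eci1, needed for unsaturated fatty acids, rose by 0.92 (SE 0.15, adjusted p = 0.000625) and 0.71 (SE 0.12, adjusted p = 0.000614). In all 3 the lowest fast food mouse overlapped the pellet mice. Cpt1a, the gate through which fatty acids enter mitochondria, was chosen after its value was seen and rose by 0.60 (SE 0.10, adjusted p = 0.000768), from 8.37, 8.80 and 9.13 to 9.0, 9.42 and 9.68. Without the mouse that stood apart, 14 of the 20 genes passed. Genes of ketone body synthesis, which uses the product of this oxidation, did not pass in either direction (4 measured), but 2 of them were called higher without the mouse that stood apart. Leaving out other single mice called 1 of them as higher (chimpanzee batch 2 replicate 1, fast food batch 1 replicate 1 or pellet batch 2 replicate 3) or 1 as lower (fast food batch 2 replicate 1 or 3), and quantile normalization called 1 in each direction.

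Vnn1 encodes a pantetheinase that breaks down a coenzyme A intermediate and is another PPARα target. It showed the second largest rise of all, from 2.97, 3.51 and 4.11 on pellets to 4.79, 6.65 and 8.70 on fast food, a difference of 3.23 (SE 0.56, adjusted p = 0.000856). The fast food mice spread over nearly 4 log2 units and still did not overlap the pellet mice. As for Cyp4a14, the pellet values lay near the median of all array values, which limits the size of the difference. Of 11 measured genes of coenzyme A synthesis and turnover, 2 rose and 0 fell, and the other was the relative Vnn3 at 0.67 (adjusted p = 0.0398). The call of Vnn3 was lost in 10 of the 24 fits that left out 1 mouse (adjusted p up to 0.124), and 3 genes rose without the mouse that stood apart.

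Of 16 measured genes of lipid droplets and lipolysis, 4 rose and 1 fell (median 0.07). G0s2, an inhibitor of the triglyceride lipase ATGL, rose from 6.09, 6.41 and 7.14 to 7.48, 8.63 and 9.34, a difference of 2.05 (SE 0.28, adjusted p = 6.83e-05). Hsd17b11, an enzyme on the droplet surface, rose by 0.75 (SE 0.10, adjusted p = 9.07e-05), and Fitm2, which helps droplets to bud from the ER, by 0.72 (SE 0.13, adjusted p = 0.00119). Mgll, which splits monoglycerides, rose by 0.56 (SE 0.13, adjusted p = 0.00969). Plin3, a droplet coat protein, was the member that fell, by 0.56 (SE 0.11, adjusted p = 0.00316), whereas Plin2, the main coat protein of fatty liver, differed by -0.02 (adjusted p = 0.996).

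Fatty acid uptake and binding proteins split both ways, with 2 of 15 higher and 2 lower (1 lower without the mouse that stood apart). Fabp5, a fatty acid carrier otherwise known from skin, showed the second largest fall of all. Its values were 10.63, 11.03 and 11.21 on pellets and 7.19, 9.33 and 9.92 on fast food, a difference of -2.05 (SE 0.38, adjusted p = 0.00175), or -1.65 without the mouse that stood apart. Slc27a2, which takes up fatty acids and activates them, rose by 0.50 (SE 0.09, adjusted p = 0.0021) and did not overlap between the diets. Lpl, which frees fatty acids from lipoproteins, fell by 0.68 (adjusted p = 0.0373) and Fabp2 rose by 0.62 (adjusted p = 0.0431), but both calls were lost when single mice were left out, in 8 and 14 of 24 fits (adjusted p up to 0.105 and 0.124). The scavenger receptor Cd36 differed by 0.94 and did not pass (SE 0.27, adjusted p = 0.0605).

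Genes of cholesterol synthesis were lower on fast food in both arms of the pathway. In the mevalonate arm, which leads from acetyl-CoA to farnesyl diphosphate and squalene, 7 of 8 measured genes fell and 0 rose, with a median difference of -1.04. In the sterol arm, which turns squalene into cholesterol, 7 of 10 fell and 0 rose, with a median of -0.85. Both arms are driven by SREBP-2. Without the mouse that stood apart 6 and 5 genes fell. In other single fits without 1 mouse the counts went down to 4 of 8 (without fast food batch 1 replicate 3) and 4 of 10 (without pellet batch 2 replicate 3).

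Sqle makes squalene epoxide, the first oxygen-requiring step, and fell more than any other called gene on the arrays. It lay at 7.61, 8.15 and 8.37 on pellets and at 3.04, 6.0 and 6.47 on fast food, a difference of -2.48 (SE 0.47, 5.56-fold, adjusted p = 0.00226). The value of 3.04 came from the mouse that stood apart, and the difference without it was -1.94 (adjusted p = 0.00138). Cyp51, which removes the first methyl group of lanosterol, fell by 1.69 (SE 0.40, adjusted p = 0.0143), from 7.65, 8.20 and 8.60 to 4.57, 6.86 and 7.40. Nsdhl, which acts soon after it, fell by 1.31 (SE 0.31, adjusted p = 0.016), from 8.73, 9.13 and 9.75 to 6.38, 8.26 and 8.39. The diets did not overlap in these genes, and in each the lowest fast food value was far under the fast food median. Lss, which closes the sterol rings, fell by 0.96 (SE 0.21, adjusted p = 0.00663), and 1 of its 2 other probe sets had the opposite sign. Hsd17b7 fell by 0.72 (adjusted p = 0.0222), a call lost without fast food batch 2 replicate 3 or without pellet batch 2 replicate 3 (adjusted p = 0.0603 and a difference of -0.66 in the latter).

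In the mevalonate arm, Hmgcs1, which condenses acetyl-CoA into the precursor of mevalonate, was 10.93, 10.99 and 11.48 on pellets and 8.10, 9.70 and 10.31 on fast food. The difference was -1.52 (SE 0.29, adjusted p = 0.00214), or -1.19 without the mouse that stood apart. Fdps, which makes farnesyl diphosphate, ran from 9.86 through 10.27 to 10.83 on pellets and from 7.29 through 8.89 to 9.29 on fast food, a fall of 1.53 (SE 0.31, adjusted p = 0.00427). Both separated the diets completely. Idi1, which isomerizes the 5-carbon building block, fell by 1.72 (SE 0.43, adjusted p = 0.0207) from 8.68, 8.94 and 9.61 to 5.17, 7.62 and 8.32. Its call was lost in 3 of 24 fits without 1 mouse, those leaving out replicate 3 of batch 1 on either diet or pellet batch 2 replicate 3 (adjusted p up to 0.054, difference -1.61).

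Mvd, which makes the isoprene unit itself, fell by 1.04 (SE 0.21, adjusted p = 0.00475) and Fdft1, which joins farnesyl units into squalene, by 0.78 (SE 0.17, adjusted p = 0.00624). Mvk fell by 0.44 (adjusted p = 0.0176), a call lost without fast food batch 1 replicate 3 (adjusted p = 0.0581). The 1 measured gene of this arm that did not fall, Ggps1, which feeds protein prenylation and not sterols, differed by 0.06 (adjusted p = 0.876).

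The promoter of Hmgcs1 is shown because it was the 1 promoter of the mevalonate arm with the sterol response element TCACNCCAC, searched on both strands of the 6 promoters matched there. The window is chr13:119690101-119690400 (RefSeq, GRCm38.p6, plus strand, 250 bases before to 50 after the transcription start), and the fixed letters of the element are in capitals, 137 bases before the start.
Hmgcs1: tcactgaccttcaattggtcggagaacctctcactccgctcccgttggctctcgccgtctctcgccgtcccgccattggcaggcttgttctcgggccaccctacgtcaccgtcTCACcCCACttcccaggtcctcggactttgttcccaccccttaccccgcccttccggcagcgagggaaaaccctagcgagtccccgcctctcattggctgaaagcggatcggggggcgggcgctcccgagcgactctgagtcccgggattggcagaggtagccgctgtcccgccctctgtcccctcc
Of 32851 mouse promoters of this length, 1.24% held these letters, and 0 of 9 promoters of the sterol arm did.

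Among regulators of the pathway, 2 of 12 measured genes of SREBP control fell and 0 rose. Insig2 encodes an ER protein that retains the SREBPs. It lay at 8.73, 9.22 and 9.69 on pellets and at 7.15, 8.25 and 8.37 on fast food, a fall of 1.14 (SE 0.19, adjusted p = 0.000593). Scap, the escort of the SREBPs, fell by 0.40 (SE 0.09, adjusted p = 0.015). Srebf2, the gene of SREBP-2, differed by -0.42 (SE 0.12, adjusted p = 0.0543). Insig1, often read as a target of the SREBPs, differed by -0.25 (adjusted p = 0.766). The sterol exporter gene Abcg5, chosen after its value was seen, rose by 0.64 (SE 0.14, adjusted p = 0.0105). Cyp7a1, the rate-limiting enzyme of bile acid synthesis, differed by -0.52 (SE 0.28, adjusted p = 0.493).

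In fatty acid synthesis 4 of 14 measured genes fell, 0 rose and 10 did not pass (median -0.41). Acss2, which turns acetate into acetyl-CoA, showed the most distinct fall. It was 9.58, 10.22 and 10.51 on pellets and 7.68, 9.03 and 9.37 on fast food, a difference of -1.34 (SE 0.27, adjusted p = 0.00432) with no overlap. The other 3 were Fasn, the fatty acid synthase, at -0.95 (adjusted p = 0.0214), Acly, which makes acetyl-CoA from citrate, at -0.87 (adjusted p = 0.0435), and Pgd, which supplies NADPH, at -0.82 (adjusted p = 0.0225). These 3 calls depended on single mice. They were lost in 4, 12 and 2 of 24 fits without 1 mouse (adjusted p up to 0.0704, 0.128 and 0.0677), and 1 gene of the list was called without fast food batch 1 replicate 2. It was 2 without fast food batch 2 replicate 2, pellet batch 1 replicate 1, pellet batch 1 replicate 2 or pellet batch 2 replicate 3. Elovl6 at -1.04 and the desaturase Scd1 at -0.33 did not pass (adjusted p = 0.191 and 0.521). Srebf1, the gene of SREBP-1c, differed by 0.36 (adjusted p = 0.314) and Mlxipl, the gene of ChREBP, by 0.02 (adjusted p = 0.995).

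Of 22 measured chaperones and folding enzymes of the ER, 9 fell and 0 rose (median -0.48). Without the mouse that stood apart 7 fell and 1 rose, and 1 also rose without chimpanzee batch 2 replicate 2, cafeteria batch 2 replicate 1 or 3 or pellet batch 2 replicate 3. Sdf2l1, a subunit of an ER chaperone complex, ran from 5.77 through 6.24 to 6.69 on pellets and from 4.08 through 4.59 to 5.33 on fast food, a difference of -1.63 (SE 0.19, 3.09-fold, adjusted p = 1.29e-05). Creld2, a disulfide isomerase released under ER stress, was 6.47, 7.08 and 7.42 on pellets and 4.72, 5.39 and 5.87 on fast food, a fall of 1.68 (SE 0.31, adjusted p = 0.00144). No fast food mouse reached the pellet range in either gene.

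Dnajb11, a partner of the chaperone BiP, fell by 0.84 (SE 0.12, adjusted p = 0.000182), from 7.26, 7.40 and 7.77 to 6.29, 6.63 and 6.89. Hyou1, which exchanges nucleotides on BiP, fell by 0.90 (SE 0.17, adjusted p = 0.00197), from 6.67, 7.04 and 7.59 to 5.71, 6.23 and 6.48. Calr, the calcium-binding lectin calreticulin, fell by 0.58 (SE 0.11, adjusted p = 0.00294), from 10.34, 10.48 and 10.51 to 9.39, 9.94 and 10.18. These 3 genes did not overlap between the diets either. The other 4 that passed were the disulfide isomerases Pdia6 (-0.55, adjusted p = 0.00596), Pdia4 (-0.47, adjusted p = 0.012) and Pdia3 (-0.51, adjusted p = 0.0224) and the secreted factor Manf (-0.95, adjusted p = 0.0426). The calls of Pdia3 and Manf were lost in 5 and 13 of 24 fits without 1 mouse (adjusted p up to 0.0649 and 0.108). The most abundant chaperones did not pass, with Hspa5, which encodes BiP, at -0.49 (SE 0.16, adjusted p = 0.12) and Hsp90b1 at -0.33 (adjusted p = 0.102). Quantile normalization, which gave 878 called genes in all (6.56%), called 15 of these 22 as lower and 1 as higher.

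The ER stress response element, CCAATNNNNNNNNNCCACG, is a known binding site of ATF6 and XBP1 together with NF-Y. Searched on both strands, it was present in 0.119% of 32851 promoters, in 17 of 10747 tested genes with a promoter, and in 8 of the 19 chaperone genes with one. The elements are shown with the fixed letters in capitals, since they let these genes be read side by side, each on the strand that reads CCAAT first, with the first of 2 matches for Hsp90b1.
Calr: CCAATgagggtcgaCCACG
Creld2: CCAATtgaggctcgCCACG
Pdia6: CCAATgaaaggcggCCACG
Canx: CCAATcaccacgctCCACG
Dnajc3: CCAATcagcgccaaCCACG
Ero1b: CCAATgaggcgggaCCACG
Hspa5: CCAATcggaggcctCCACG
Hsp90b1: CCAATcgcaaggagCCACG
Of these 8 genes, 3 fell (Calr, Creld2 and Pdia6), and the values of the other 5 were -0.02 for Canx, -0.52 for Dnajc3, -0.56 for Ero1b, -0.49 for Hspa5 and -0.33 for Hsp90b1. Of the other 11 genes with a promoter, 4 fell. The letters were thus found in genes that fell and in genes that did not pass.

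The whole promoter of Creld2, the chaperone gene with the largest fall, shows where the element lies. The window is chr15:88819396-88819695 (GRCm38.p6, plus strand), and the element, read on the opposite strand, is 126 bases before the start, with its fixed letters in capitals.
Creld2: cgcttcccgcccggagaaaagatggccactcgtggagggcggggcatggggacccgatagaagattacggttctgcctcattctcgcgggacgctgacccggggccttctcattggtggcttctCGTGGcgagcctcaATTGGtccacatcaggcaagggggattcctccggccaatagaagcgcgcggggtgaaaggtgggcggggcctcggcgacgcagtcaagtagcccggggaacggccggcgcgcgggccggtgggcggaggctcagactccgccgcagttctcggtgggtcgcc

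In a list of ER export and the secretory pathway 1 of 22 measured genes rose, 1 fell and 20 did not pass. That is 9.09% called, against 3.4% of all genes tested. The lower one was Sec61a1, the pore for new proteins, at -0.59 (adjusted p = 0.00843). Counts of the lower genes ran from 1 to 4 without single mice, the 4 without fast food batch 2 replicate 1 and 3 without cafeteria batch 1 replicate 1, and 0 rose without fast food batch 2 replicate 3 or pellet batch 2 replicate 1 or 2. In the same list quantile normalization called 10 as lower and 2 as higher. Single genes of folding and glycan transfer outside these lists also fell, all chosen after their values were seen. Fkbp11, a proline isomerase of secretory cells, fell by 1.01 (SE 0.15, adjusted p = 0.00014), from 5.85, 5.93 and 6.36 to 4.76, 5.01 and 5.25. Slc35b1, which brings ATP into the ER, fell by 0.95 (SE 0.20, adjusted p = 0.00582). Uggt1, which checks the folding of glycoproteins, fell by 0.75 (adjusted p = 0.00302), and Ddost, a subunit of the enzyme that attaches glycans, by 0.55 (adjusted p = 0.00254). In the list of the unfolded protein response and of the removal of misfolded proteins, 2 of 20 rose and 1 fell (3 rose without the mouse that stood apart, and 2 fell without fast food batch 1 replicate 3). Herpud1, which supports that removal, rose by 0.64 (SE 0.13, adjusted p = 0.00488) from 8.98, 9.45 and 9.55 to 9.55, 9.96 and 10.46. The other riser was Hsph1, a chaperone described with those of the cytosol, and Edem2, which trims glycans, fell by 0.65 (SE 0.14, adjusted p = 0.00831).

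Of 21 measured genes of the ATF4 response, which answers amino acid shortage and ER stress, 2 fell and 0 rose. Atf5, a transcription factor of this response, was 8.24, 8.61 and 9.12 on pellets and 6.46, 7.19 and 7.98 on fast food, a difference of -1.48 (SE 0.19, adjusted p = 3.87e-05) with no overlap. Trib3, a pseudokinase, fell by 0.67 (SE 0.12, adjusted p = 0.000856). Atf4 itself differed by -0.22 (adjusted p = 0.114). Among 19 aminoacyl-tRNA synthetase genes, many of them ATF4 targets, 2 fell and 0 rose, with Tars at -0.86 (adjusted p = 0.00211) as the example chosen after its value was seen. The count was 1 in 7 fits without 1 mouse, that of the mouse that stood apart among them, and 4 without cafeteria batch 2 replicate 3 or pellet batch 1 replicate 2. Quantile normalization called 7.

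Among chaperones of the cytosol, 4 of 18 measured heat shock genes rose and 0 fell (median 0.28), and 5 rose without the mouse that stood apart. Hsph1, a large relative of Hsp70, lay at 4.56, 5.30 and 6.47 on pellets and at 6.10, 6.70 and 7.5 on fast food, a rise of 1.32 (SE 0.25, adjusted p = 0.00192). Dnaja1, a partner of Hsp70, rose by 0.55 (SE 0.13, adjusted p = 0.0122). The groups of both genes overlapped. Hspa1b, an inducible Hsp70, rose by 1.27 (SE 0.30, adjusted p = 0.016) from 4.94, 5.24 and 5.99 to 6.21, 6.52 and 7.40 with no overlap, and Chordc1, a partner of Hsp90, by 0.84 (adjusted p = 0.0236). The call of Hspa1b was lost without fast food batch 2 replicate 3 and without pellet batch 1 replicate 3 (adjusted p = 0.0509 and a difference of 1.17 in the latter), that of Chordc1 in 4 of 24 fits (adjusted p up to 0.0727), and 2 of the 18 genes were called without fast food batch 2 replicate 3. Dnajb1 differed by 0.56 and did not pass (adjusted p = 0.0834).

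Clock genes and their outputs also differed. Each mouse gave 1 liver sample, so a change of level and a shifted rhythm cannot be told apart. In the core clock 3 of 16 measured genes rose and 2 fell (1 without the mouse that stood apart). Nr1d1, which encodes the repressor REV-ERBα, was 5.64, 6.29 and 6.78 on pellets and 4.5, 4.75 and 5.48 on fast food, a difference of -1.47 (SE 0.21, adjusted p = 0.000147) with no overlap. The repressors Per2 and Per1 rose by 1.06 (SE 0.20, adjusted p = 0.00252) and 0.64 (SE 0.14, adjusted p = 0.00921), and the groups of both overlapped. Cry1 rose by 0.66 (SE 0.16, adjusted p = 0.0146) from a pellet level below the median of all array values. Clock fell by 0.43 (adjusted p = 0.0341), a call lost in 9 of 24 fits without 1 mouse (adjusted p up to 0.104). The close relative of Nr1d1, Nr1d2, differed by -0.06 (adjusted p = 0.975) and Dbp, a strongly rhythmic output, by -0.22 (adjusted p = 0.789).

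Among 15 measured output genes 6 rose and 1 fell (median 0.34). The one that fell was Ppp1r3c, described with glycogen, and 0 fell without the mouse that stood apart. Usp2, a deubiquitinase with a strong daily rhythm in liver, ran from 3.84 through 4.55 to 5.46 on pellets and from 6.51 through 6.73 to 7.46 on fast food, a difference of 2.21 (SE 0.21, 4.63-fold, adjusted p = 3.35e-07). Noct, the enzyme nocturnin, rose by 1.52 (SE 0.36, adjusted p = 0.014) from 4.31, 5.49 and 6.37 to 5.66, 6.97 and 8.13. Usp2 separated the diets, whereas Noct overlapped. Wee1, a kinase that holds back cell division, rose by 0.99 (SE 0.16, adjusted p = 0.000398), and Coq10b, which binds coenzyme Q, by 0.93 (SE 0.16, adjusted p = 0.000856). Alas1, which sets the pace of heme synthesis and is also a clock output, rose by 1.32 (SE 0.32, adjusted p = 0.016), from 7.24, 8.67 and 9.73 to 9.61, 10.09 and 10.36. That call was lost without pellet batch 1 replicate 1 (adjusted p = 0.0513, difference 1.20). Nampt, a rhythmic enzyme of NAD synthesis chosen after its value was seen, rose by 1.08 (SE 0.16, adjusted p = 0.000147) from 6.02, 6.94 and 7.08 to 7.17, 7.76 and 8.25.

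Vitamin A metabolism held 2 of the largest changes in opposite directions, with 3 of 19 measured genes higher and 3 lower (median 0.01). Retsat, which saturates retinol, was 8.11, 8.53 and 9.01 on pellets and 9.42, 10.27 and 10.74 on fast food, a rise of 1.68 (SE 0.15, 3.2-fold, adjusted p = 9.38e-08). Rdh11, a retinal reductase that SREBPs are known to induce, fell by 1.85 (SE 0.34, 3.6-fold, adjusted p = 0.00176), from 7.58, 7.98 and 8.39 to 3.98, 6.34 and 7.01. The diets did not overlap in either gene. Dhrs4, a peroxisomal retinal reductase, rose by 0.58 (SE 0.12, adjusted p = 0.00381), and Aldh1a1, which makes retinoic acid, by 0.51 (SE 0.11, adjusted p = 0.00838). Bco1, which splits beta-carotene, fell by 0.44 (adjusted p = 0.0243), a call lost in 4 of 24 fits without 1 mouse (adjusted p up to 0.0809), and the number of lower genes was 1 without fast food batch 1 replicate 3 or pellet batch 2 replicate 2.

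In glycogen metabolism 2 subunits that bring protein phosphatase 1 to glycogen changed in opposite directions among 13 measured genes. Ppp1r3b, the main form in liver, rose from 6.63, 7.48 and 7.91 to 8.41, 8.78 and 9.64, a difference of 1.5 (SE 0.14, adjusted p = 2.01e-07). Ppp1r3c fell from 7.75, 7.97 and 8.43 to 5.69, 6.92 and 7.25, a difference of -1.25 (SE 0.35, adjusted p = 0.0426). The diets did not overlap in either gene, but the call of Ppp1r3c was lost in 12 of 24 fits without 1 mouse (adjusted p up to 0.103), that of the mouse that stood apart included. In gluconeogenesis 2 of 15 rose and 0 fell (13.3% called, against 3.4% of all genes tested). They were Pck1, the key enzyme from oxaloacetate, at 0.59 (SE 0.14, adjusted p = 0.012), and Foxo1, its regulator, at 0.62 (SE 0.15, adjusted p = 0.0148). Of 24 genes of insulin and growth factor signalling, 3 fell and 0 rose (2 fell without the mouse that stood apart). Socs2, a feedback inhibitor of growth hormone signalling, fell by 1.45 (SE 0.31, adjusted p = 0.00648) from 6.57, 7.59 and 8.0 to 4.64, 6.39 and 6.76, and Egfr by 0.92 (SE 0.16, adjusted p = 0.000856) with no overlap. The calls of Egfr and Foxo1 were lost when each gene was read by its probe set of largest variance.

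Sulfide and metals gave a pair of very distinct falls. Ethe1, the mitochondrial dioxygenase that clears hydrogen sulfide, was 8.43, 8.79 and 9.29 on pellets and 6.69, 6.91 and 7.67 on fast food, a difference of -1.81 (SE 0.15, 3.51-fold, adjusted p = 6.29e-08). In methionine, cysteine and sulfide metabolism 3 of 20 measured genes fell and 0 rose, Cbs among them at -0.60 (SE 0.14, adjusted p = 0.0135). Without the mouse that stood apart 2 fell and 1 rose. Slc30a10, which exports manganese, fell by 1.28 (SE 0.14, adjusted p = 2.46e-06), from 4.94, 5.55 and 6.46 to 3.91, 4.22 and 4.66. No overlap was present in these 3 genes. Among 24 measured genes of metal handling, 1 rose and 2 fell (12.5% called, against 3.4% of all genes tested). The count of lower genes was 1 in 15 of 24 fits without 1 mouse, that of the mouse that stood apart included. The one that rose, the transferrin receptor Tfrc, did so by 0.96 (SE 0.23, adjusted p = 0.0169), a call lost without pellet batch 1 replicate 2 (adjusted p = 0.0523, difference 0.85).

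Genes of the interferon response and of antigen presentation were lower where they differed. Of 25 measured interferon-induced genes 4 fell and 0 rose (median -0.27), and of 18 genes of antigen presentation 3 fell and 0 rose (median -0.21). Irgm2, a GTPase against pathogens inside cells, fell by 1.01 (SE 0.24, adjusted p = 0.0148), from 5.78, 6.22 and 7.0 to 4.37, 5.31 and 6.05. Usp18, which dampens interferon signalling, fell by 1.15 (SE 0.29, adjusted p = 0.022), from 4.49, 5.01 and 5.51 to 3.38, 3.81 and 4.45. The MHC class I gene H2-K1 fell by 0.39 (SE 0.08, adjusted p = 0.00577), from 11.01, 11.14 and 11.40 to 10.44, 10.82 and 11.002. Usp18 and H2-K1 separated the diets, but the call of Usp18 was lost in 4 of 24 fits without 1 mouse (adjusted p up to 0.0709). The number of interferon-induced genes called was 1 without pellet batch 2 replicate 2 and 2 without any of fast food batch 1 replicates 2 and 3, fast food batch 2 replicates 2 and 3, pellet batch 1 replicate 2 and pellet batch 2 replicate 1. For antigen presentation it was 1 without fast food batch 2 replicate 2 or 3 or pellet batch 1 replicate 3.

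Among markers of blood cells, Ighm of B cells fell by 0.82 (SE 0.17, adjusted p = 0.00458). The summed log2 level of the 4 measured B cell markers, Ighm included, was 15.2 to 16.1 on fast food and 16.3 to 17.4 on pellets. The sums did not overlap, but 0 of the 4 markers alone separated the diets. The other 3 did not pass, and the median of the 4 was -0.08 (-0.0005 in batch 1 and -0.17 in batch 2). Of 12 Kupffer cell and macrophage markers 0 passed, with sums of 67.7 to 80.1 on fast food and 69.3 to 79.3 on pellets, and for T and NK cells the sums were 24.4 to 27.9 and 23.7 to 26.9. The part of these cells in the lower immune genes was not tested. Among 32 genes of the acute phase and inflammation 2 rose and 3 fell, and 1 rose without pellet batch 1 replicate 2 or 3 or pellet batch 2 replicate 1. Cebpb, a transcription factor, rose by 1.01 (SE 0.20, adjusted p = 0.00367). The other riser was Saa4, whose call was lost in those fits (differences of 0.34 to 0.36, limma adjusted p up to 0.0548). Orm1, the plasma protein orosomucoid, fell by 0.58 (SE 0.12, adjusted p = 0.00493) with no overlap, and its relative Orm2 by 0.99 (SE 0.13, adjusted p = 6.83e-05) to a fast food level below the median of all array values. Their sequences are alike, so probes may read both. Apcs, the plasma protein serum amyloid P, fell by 0.61 (SE 0.13, adjusted p = 0.00548).

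Receptors and enzymes of drug metabolism were read in 1 list. Nr1i3, the receptor CAR, which induces drug-metabolizing enzymes, lay at 7.61, 7.72 and 8.11 on pellets and at 8.26, 8.75 and 9.39 on fast food, a rise of 0.98 (SE 0.13, adjusted p = 3.85e-05) with no overlap. Of the 24 measured genes of this list, 22 of them cytochrome P450 genes, 4 rose and 0 fell. They were Nr1i3 and the 3 P450 genes Cyp2c38, Cyp2b13 and Cyp2b9. Cyp2c38 rose by 0.46 (SE 0.10, adjusted p = 0.00702). The calls of Cyp2b13 and Cyp2b9 were each lost in 7 of 24 fits without 1 mouse (limma adjusted p up to 0.0851 and 0.0925). Over the 24 fits their differences ran from 0.54 to 0.65 and from 0.29 to 0.40. The best known CAR target, Cyp2b10, differed by -0.42 (adjusted p = 0.597). The count of 4 was 5 without the mouse that stood apart and 2 without fast food batch 2 replicate 1 or 3 or without pellet batch 2 replicate 1 or 2.

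Several of the largest changes belonged to none of these groups. Among the rises, Rad51b, a DNA repair gene, went from 3.09, 3.40 and 3.51 to 3.76, 5.52 and 5.84 (1.95, SE 0.29, adjusted p = 0.000214). Krt23, a keratin, went from 4.52, 5.16 and 5.38 to 6.34, 6.64 and 7.35 (1.63, SE 0.19, adjusted p = 5.82e-06), and Pctp, which carries phosphatidylcholine, from 3.76, 3.97 and 4.45 to 4.65, 5.69 and 6.11 (1.47, SE 0.19, adjusted p = 4.61e-05). In all 3 every fast food mouse lay above every pellet mouse. The same held for Etfbkmt, a mitochondrial methyltransferase (1.5, adjusted p = 9.07e-05), and Rhobtb1 (1.41, adjusted p = 7.62e-07). It held also for Dclre1a, a DNA repair nuclease (1.39, adjusted p = 0.000451), although its other probe set had the opposite sign. Among the falls, Klf10, a transcription factor, went from 4.46, 5.65 and 6.13 to 3.17, 3.87 and 5.05 (-1.59, SE 0.26, adjusted p = 0.000561), and Tubb2a, a tubulin, from 5.52, 6.47 and 7.67 to 3.77, 5.02 and 6.0 (-1.46, SE 0.31, adjusted p = 0.00559). Both overlapped between the diets. Tubb2a and Krt23 belonged to a list of the cytoskeleton and hepatocyte growth in which 5 of 20 genes fell and 1, Krt23, rose. The 5 became 3 without any of fast food batch 1 replicates 2 and 3, fast food batch 2 replicate 2, pellet batch 1 replicates 1 and 3 and pellet batch 2 replicates 2 and 3, and 2 rose without cafeteria batch 2 replicate 1. There Cldn1, a tight junction protein, fell by 1.30 (SE 0.25, adjusted p = 0.00226) and S100a10, a partner of annexin A2, by 0.90 (SE 0.13, adjusted p = 0.000147), both with no overlap.

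**Figure D3:**
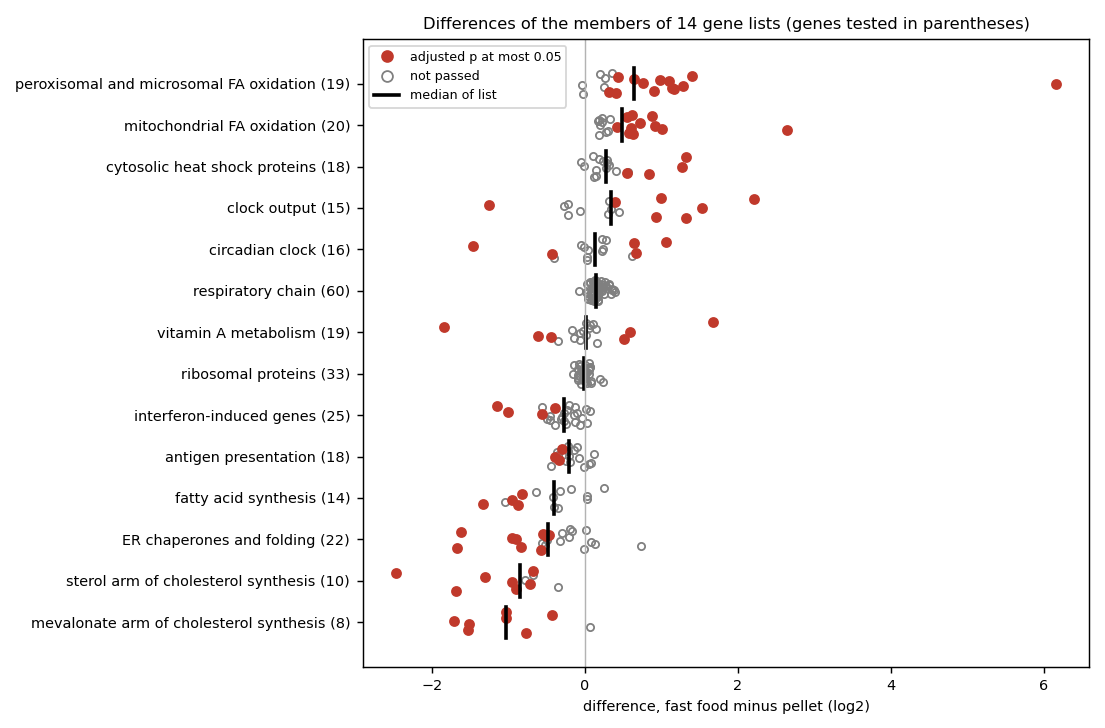
Difference between fast food and pellets (log2, horizontal axis) for each measured member of 14 gene lists (rows, with the number of genes tested). Filled red points passed at an adjusted p of at most 0.05, open points did not, and the black bar is the median of the list. The medians run from -1.04 in the mevalonate arm to 0.64 in peroxisomal and microsomal fatty acid oxidation.

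Other large machineries were read as lists too. Of 60 measured genes of the respiratory chain and ATP synthase 0 passed (limma, 15 at an unadjusted p of 0.05), although 59 had a positive difference, with a median of 0.15 and Ndufb10 as an example at 0.35 (adjusted p = 0.0583). Quantile normalization called 14 of the 60 as higher, and 9 were called without the mouse that stood apart (0 to 3 without any other mouse). Of 33 genes of cytosolic ribosomal proteins 0 passed (limma, 1 at an unadjusted p of 0.05, median -0.01), and quantile normalization called 0. Of 30 genes of complement and coagulation 0 passed (limma, 9 at an unadjusted p of 0.05, median -0.17), and quantile normalization called 7 as lower. Without single mice 0 to 2 of these 30 were called as lower.

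Fast food was then set against the cafeteria diet, the other diet of cooked human food, to see which of the differences from pellets were shared. Because the pellet mice are common to both comparisons, the values are given side by side, and the difference was tested directly between the fast food and cafeteria mice. That test called 1 gene of 13385 (0.00747%, limma), with 684 (5.11%) at an unadjusted p of 0.05. Of the 455 genes that differed from pellets, 74 had an unadjusted p under 0.05 here and 0 passed after adjustment. The called gene was Ang, which encodes the secreted ribonuclease angiogenin. It was 8.57 ± 0.332 (SD, n = 6) on fast food, 9.35 ± 0.204 on the cafeteria diet and 8.49 ± 0.256 on pellets. The difference between fast food and cafeteria was -0.79 (SE 0.12, adjusted p = 0.0229), whereas fast food and pellets differed by 0.08 (adjusted p = 0.948). The count of called genes was 0 without any of fast food batch 1 replicates 1 to 3, fast food batch 2 replicate 3 or cafeteria batch 1 replicate 2, 2 without any of the cafeteria mice of batch 2, and 12 without the fast food mouse that stood apart. One of the 2 other probe sets of Ang had the opposite sign between fast food and pellets, where the difference was only 0.08. Their signs between fast food and cafeteria were not read. With the probe set of largest variance for each gene, 0 genes passed between fast food and cafeteria.

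The next genes by p were Acnat2, an acyltransferase of peroxisomes (0.73, SE 0.13, adjusted p = 0.068), and Slco1a4, an organic anion carrier (-0.69, SE 0.13, adjusted p = 0.115), neither of which passed. Among genes chosen after their values were seen, the PPARα targets Cyp4a14 and Acot1 had higher means on fast food. Cyp4a14 was 9.43 ± 0.925 (SD, n = 6) on fast food and 8.40 ± 0.916 on the cafeteria diet, against 3.26 ± 0.416 on pellets. Acot1 was 6.34 ± 0.92 on fast food, 5.18 ± 0.59 on the cafeteria diet and 3.70 ± 0.534 on pellets. Neither difference between fast food and cafeteria passed (adjusted p = 0.888 and 0.408). In genes of fat synthesis the cafeteria diet had the lower means. Fasn was 8.79 ± 0.579 on fast food and 7.85 ± 0.356 on the cafeteria diet, against 9.74 ± 0.401 on pellets, and the difference of 0.94 (SE 0.24) did not pass (adjusted p = 0.39). Aqp8, a water channel, was 8.68 ± 0.39 on fast food, 7.67 ± 0.307 on the cafeteria diet and 9.87 ± 0.349 on pellets (fast food minus cafeteria 1.01, SE 0.20, adjusted p = 0.115). For the list of fatty acid synthesis the median difference between fast food and cafeteria was 0.40, and 6 of 14 genes had an unadjusted p under 0.05. For the ER chaperones it was -0.02, and 0 of 22 did. For peroxisomal and microsomal fatty acid oxidation the median was 0.23 with 7 of 19 genes under that p. For mitochondrial fatty acid import and oxidation it was 0.10 with 5 of 20.

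**Figure D4:**
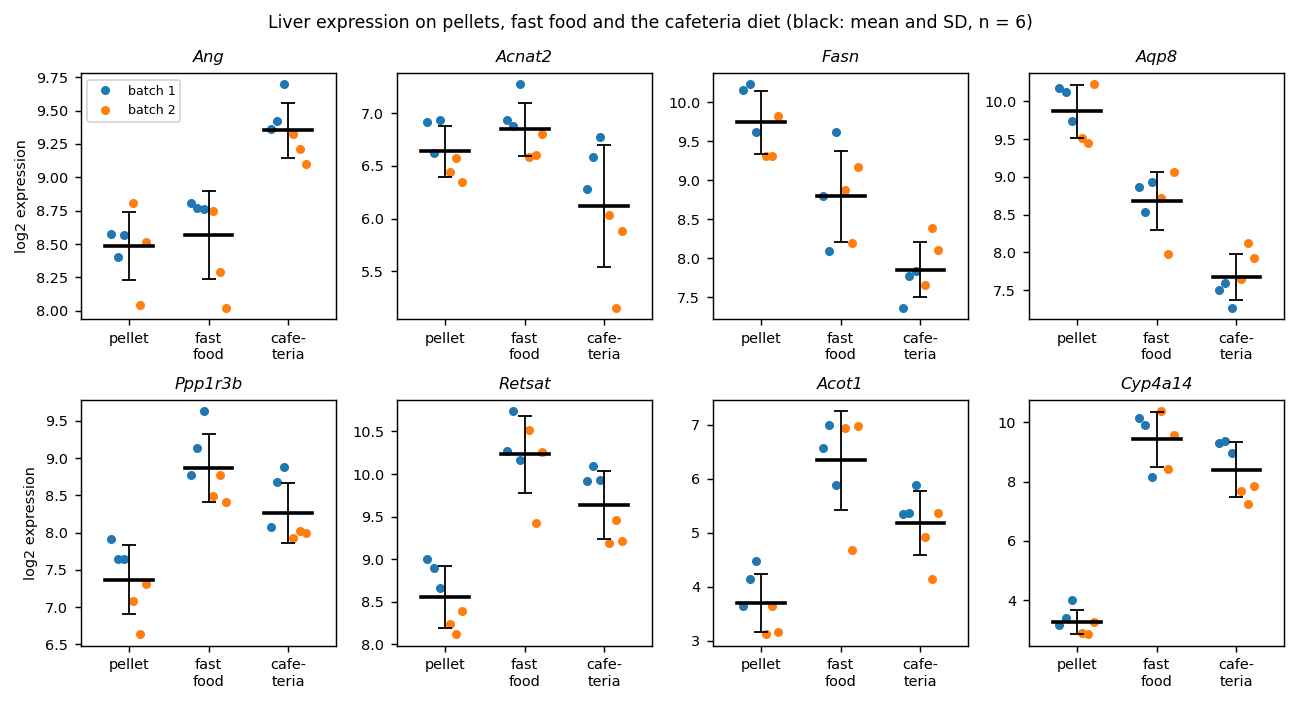
Log2 expression of 8 genes in each mouse on pellets, fast food and the cafeteria diet (6 mice each, 3 per batch in different colours), with black lines for the mean ± SD. Ang stands higher on the cafeteria diet alone, and in Aqp8 the fast food mean lies between those of the other two diets.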

How the data were processed

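Liver RNA of 24 mice was hybridised to Affymetrix mouse genome arrays, 1 array per mouse. The authors describe values made with rma in the Bioconductor package affy, which corrects background, normalizes by quantiles and summarizes each probe set. The deposited values are on a log2 scale. Their 90th percentiles still ran from 5.67 (cafeteria batch 2 replicate 3) to 6.62 (fast food batch 1 replicate 3). The values tested here thus had unequal ranges between arrays, and the reason was not tested. The number of arrays, not counting depth, limits the precision. The table held 45101 probe sets, of which 34945 had 1 gene symbol in the platform annotation and 932 had several and were not named. A probe set was kept when its value was above 3.147, the median of the table, in 6 or more arrays, and a gene was its probe set of highest mean, which gave 13385 genes.

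Diet and batch, from the sample titles, were fitted to all 24 arrays with lmFit and eBayes of limma 3.58.1 (R 4.3.3), and contrasts were tested two-sided with Benjamini-Hochberg adjustment at 0.05. Littermates were spread over the diets, and litter is in no fit. Named genes were, among called genes whose batches shared a sign, the 15 that rose most and the 15 that fell most, up to 5 members of smallest p in each list described, and the 3 of smallest p for fast food against cafeteria. Other genes were chosen after their values were seen. There were 48 pathway and 11 marker lists, with 959 of 1101 symbols measured. The comparison and the lists were chosen with earlier results of these data known. Fits were tested on simulated data. Alternatives changed the arrays, normalization, filters, probe sets, covariates and test, and left out each mouse. Promoters were those of RefSeq (GRCm38.p6), and motifs were searched as letters alone. The peroxisome proliferator element was in 0 of 15 peroxisomal and 0 of 18 mitochondrial list promoters (16 of 10747 tested genes). The sterol element was in 0 of 10 SREBP control and 1 of 12 fatty acid synthesis promoters (159 of 10747). The ER stress element was in 2 of 17 promoters of the unfolded protein response list. The heat shock element was in 4 of 15 heat shock genes (65 of 10747). The E-box was in 4 of 13 core clock and 3 of 13 output genes (1185 of 10747). Brain arrays and the authors' detection calls were not used here.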

Additional observations from a re-analysis of the deposited data

Results flagged for a closer look

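In 150 genes named above, the 6 mice of each diet were searched for 1 value far from the other 5, by Dixon's test at 95%. Chance gives about 1 such value in 20 independent groups. The genes share the same 12 arrays and both batches were pooled, so that rate is only a rough guide here. There were 35 in 300 groups (11.7%), 33 on fast food and 2 on pellets. Of the 33, 28 came from the same mouse, fast food batch 2 replicate 2, whose array also had the lowest 90th percentile of the 12 arrays of both diets, and in each of them it was the lowest of the 6. Some of these genes had risen on fast food and some had fallen, so that leaving the mouse out enlarged some differences and reduced others.

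Among genes of fat oxidation and storage, this mouse's log2 expression was lowest in Acadm (10.09 against 10.54 or more in the others), Acot4 (5.98 against 7.22 or more in the others), Decr1 (8.86), Decr2 (8.16), Eci1 (8.29), Eci2 (8.51), Hsd17b11 (10.04) and Mgll (8.01). Among sterol genes and their regulators, Rdh11 and Pgd, it was lowest in Fdft1 (7.56 against 8.4 or more in the others), Fdps (7.29 against 8.83 or more in the others), Insig1 (7.54), Insig2 (7.15), Lss (5.28), Pgd (4.86), Rdh11 (3.98) and Sqle (3.04). Among chaperones, ER proteins and the synthetase Tars, the values were those of Canx (8.8 against 9.38 or more in the others), Chordc1 (5.97 against 6.76 or more in the others), Ddost (7.29), Dnaja1 (8.83), Pdia6 (7.94) and Tars (6.58). The others were Dhrs4 (7.95 against 8.62 or more in the others), Etfbkmt (5.48 against 6.18 or more in the others), Gda (6.92), Plin2 (9.79), Ppp1r3c (5.69) and Rad51b (3.76).

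Egfr stood low in fast food batch 1 replicate 2 (log2 expression 6.4, the others from 6.83 to 7.07). Ggps1 stood low in fast food batch 1 replicate 3 (log2 expression 3.19, the others from 3.39 to 3.48). Manf stood high in pellet batch 1 replicate 1 (log2 expression 8.64, the others from 8.04 to 8.24). Mvk stood low in fast food batch 1 replicate 3 (log2 expression 5.16, the others from 5.5 to 5.65). Nr1d1 stood high in fast food batch 1 replicate 1 (log2 expression 5.48, the others from 4.5 to 4.83). Nr1i3 stood high in pellet batch 1 replicate 2 (log2 expression 8.11, the others from 7.61 to 7.8). Rhobtb1 stood high in fast food batch 1 replicate 3 (log2 expression 8.41, the others from 7.38 to 7.72).

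Ang differed between fast food and the cafeteria diet in a direct test between their mice, whereas fast food against pellets did not pass for this gene. The difference between fast food and cafeteria was -0.79 (SE 0.12, limma adjusted p = 0.0229), and 1 of 13385 genes passed this test. That count became 0 in several fits without 1 mouse and in several other settings.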

How the results depend on the processing

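The direction of 123 called genes named above held in every alternative that tested them, with 0 reversed. Cyp2b13, Cyp2b9 and Saa4 are not among the 123. The alternatives use the same arrays, so this is no independent support. Of the 123, 63 also kept their call in every alternative other than the fit of batch 2 alone, in which 109 were lost. With each gene read by its probe set of largest variance, 6 calls were lost, those of Clock, Dnaja1, Egfr, Fdft1, Foxo1 and Mvk. The count of 455 (222 higher, 233 lower) stayed within 1.5 times in fits of the 12 arrays of both diets (584, of which 403 were shared), of 18 arrays (391), with an intensity trend (445), with no filter on low values (422), with a stricter filter (472), with the probe set of largest variance (426), with the beta-actin difference as a covariate (429) and without genes of a batch interaction (445). A procedure modelled on the methods, Tukey's test at an unadjusted p of 0.01 over genes above the median of all values in 2 or more arrays, a filter used here in place of detection calls, gave 507 (189 after Benjamini-Hochberg). With 1 mouse left out, counts ran from 350 to 577, of which 166 to 303 were higher and 173 to 295 lower. The count for fast food against cafeteria then ran from 0 to 12, and that for the interaction with batch from 0 to 1, the 1 without pellet batch 1 replicate 2.

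Other settings moved the counts further. Batch left out of the fit gave 166 genes (75 higher, 91 lower), batch 1 alone 286 (144 and 142) and batch 2 alone 18 (12 and 6), with fewer mice in each of the last 2. More genes were called with cyclic loess (929, 453 and 476), quantile normalization (878, 435 and 443), the 90th percentile as a covariate (1076, 545 and 531), array weights (968, 572 and 396, a fit that did not fully converge), every probe set as its own feature (733, 350 and 383) and without the 4 arrays of lowest 90th percentile (841, 557 and 284). Higher genes made up 59.1% of the calls with array weights and 66.2% without those 4 arrays, against 48.8% in the main fit. The cause was not tested. For fast food against cafeteria, the count of 1 became 0 with 18 arrays, without batch, in batch 2 alone, with the replicate block, with the probe set of largest variance and with the beta-actin covariate. It became 4 with quantile normalization, 6 with every probe set, 7 without the 4 arrays, 8 with cyclic loess, 9 with array weights, 11 with the 90th percentile as a covariate and 60 by the procedure modelled on the methods (0 after Benjamini-Hochberg). The interaction with batch gave 4 genes with array weights.

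No label says that replicate numbers pair the mice. Deviations of same-numbered mice of both diets correlated at -0.17, 0.27 and -0.08 in batch 1 and at -0.20, 0.27 and 0.30 in batch 2. These mixed values neither show nor exclude a pairing. A fit with the replicate block called 422 genes (208 higher, 214 lower), of which 403 were shared with the main fit. Genes near the median of all array values have little room to fall, which limits differences of dim genes. Examples are Cry1, Orm2 and, on pellets, Cyp4a14, Vnn1, Acot1 and Rad51b.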

Other observations

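Genes outside the pathways above also separated the diets, all of them chosen after their values were seen. Gda, which deaminates guanine, rose from 5.59, 6.43 and 6.78 (lowest, median and highest of 6 mice) on pellets to 6.92, 7.54 and 7.80 on fast food (1.19, SE 0.13, limma adjusted p = 2.76e-06). Ces1d, a carboxylesterase that also splits stored triglyceride, rose from 10.18, 10.41 and 10.57 to 10.81, 11.24 and 11.37 (0.78, SE 0.10, adjusted p = 4.55e-05). Fgf1, a growth factor that PPARγ regulates in mouse fat, rose by 0.94 (SE 0.14, adjusted p = 0.000169), and Klb, the co-receptor that the liver needs for FGF signals from the gut, fell by 0.71 (SE 0.14, adjusted p = 0.00226). The diets did not overlap in these 4 genes. The fasting hormone gene Fgf21, itself a PPARα target, differed by -0.12 (adjusted p = 0.949). Angptl4, a secreted inhibitor of lipoprotein lipase and another PPARα target, rose by 1.10 (SE 0.22, adjusted p = 0.00376) with overlap.

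Coq8a, which takes part in coenzyme Q synthesis, fell from 8.02, 8.40 and 9.03 to 7.33, 7.5 and 7.89 (-0.94, SE 0.13, adjusted p = 0.000106). Hsd17b2, which inactivates estradiol and testosterone, fell from 9.79, 9.999 and 10.18 to 8.53, 9.16 and 9.49 (-0.94, SE 0.14, adjusted p = 0.000168). Hal, the first enzyme of histidine breakdown, fell by 0.72 (SE 0.14, adjusted p = 0.00381). In the list for urea cycle and amino acid breakdown 1 of 29 measured genes rose and 1 fell (6.9% called, against 3.4% of all genes tested). In that list 2 fell without fast food batch 2 replicate 1 or cafeteria batch 1 replicate 1. Abcb11, the pump that exports bile salts, fell by 0.68 (SE 0.14, adjusted p = 0.00597). Coq8a, Hsd17b2 and Hal did not overlap between the diets, and Abcb11 did.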
